A study of Mus musculus with 9 samples.

Results

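The genes described are 10 precursors of neuropeptides and related secreted peptides that neurons of the olfactory bulb make: Cck, Sst, Npy, Penk1, Tac1, Vip, Crh, Pnoc, Cartpt and Vgf. The members are set by name as neuropeptide genes long studied in this tissue, and the rule uses no measured value. They were, however, chosen with earlier results of these data known. All 10 were among the 27497 gene identifiers of the deposited table, and all 10 were among the 12780 genes tested, those averaging 1 RPKM or more (reads scaled by transcript length and library size). Polyadenylated RNA was sequenced from the bulbs of 9 adult mice of strain C57/BL6, which were 6 to 8 weeks old or older, with 3 separate mice in each of 3 groups. The clean air group breathed air drawn through activated carbon. The 30 min group was killed once 30 min with an odorant cocktail had passed, and the 120 min group after 30 min of that cocktail and 90 min of clean air. No transgene or drug was used according to the labels, and every group consisted of whole dissected bulbs. The series asks which transcripts respond to neuronal activity in the living animal, and how fast.

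A neuropeptide is made as a long precursor, which convertases and carboxypeptidases cut into active peptides inside dense-core vesicles, and it acts through G protein-coupled receptors after release. In the olfactory bulb, peptides mark particular neurons: cholecystokinin is found in tufted cells and vasoactive intestinal peptide, somatostatin and enkephalin in sets of local interneurons. Neuropeptide genes are also classic targets of activity in many brain regions, since several carry the cAMP response element, the site bound by the transcription factor CREB.

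The recovered sequencing depth was 7.14 to 29.8 M counted reads (M, megareads) per library, and 3 counts on a transcript of 1 kb corresponded to 0.101 to 0.42 RPKM. Defining bulb markers were present, with 9-mouse means of 491 RPKM for Doc2g and 67.3 for Eomes (mitral and tufted cells), 417 for Gad1 and 336 for Synpr (granule and other GABAergic cells), and 194 for Th (dopaminergic periglomerular cells). The interneuron factor Lhx6, which the bulb largely lacks, averaged 0.153 RPKM. Its list of cortical and basal forebrain interneuron genes was not low throughout: Nos1 averaged 18.3 RPKM, Htr3a 10.3 and Prox1 0.733. Clean air mice 2 and 3 stood apart in Nrgn, a gene of the frontal cortex and anterior olfactory nucleus list, with 708 and 604 RPKM against 268 to 448 in the other 7 mice. The other 8 genes of that list did not follow in mouse 2, summing to 36.0 RPKM there and 54.1 in mouse 3, within 35.5 to 54.1 over all 9 mice. Clean air mouse 3 also had the lowest sum of 5 ensheathing cell markers, 546 RPKM against 709 to 1653 in the others. Apod and Fabp7 carried that sum: the other 3 markers summed to 69.9 RPKM there, within 59.98 to 96.0 over all 9 mice.

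The start regions of 6 of the 10 genes were in the RefSeq promoter table (build GRCm38.p6), and 4 are shown because they differ in the element through which activity is best known to reach peptide genes. The stretches run from 130 bases before to 20 bases after the annotated start, 5′ to 3′ on the gene's own strand. Capitals mark the palindromic cAMP response element TGACGTCA, or its shorter form TGACG read on either strand (CGTCA on the opposite strand); the palindrome contains both short forms.
Sst promoter, chr16:23890825-23890974, minus strand: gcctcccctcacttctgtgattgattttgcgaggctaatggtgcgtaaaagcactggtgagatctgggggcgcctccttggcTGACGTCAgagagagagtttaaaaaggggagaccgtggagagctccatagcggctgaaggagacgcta
Cartpt promoter, chr13:99900664-99900813, minus strand: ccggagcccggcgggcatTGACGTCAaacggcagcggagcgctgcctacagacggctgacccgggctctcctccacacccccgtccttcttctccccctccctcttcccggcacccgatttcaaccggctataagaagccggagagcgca
Vip promoter, chr10:5639088-5639237, plus strand: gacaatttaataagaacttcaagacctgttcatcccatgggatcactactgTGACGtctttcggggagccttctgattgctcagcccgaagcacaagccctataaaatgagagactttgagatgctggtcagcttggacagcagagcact
Npy promoter, chr6:49822580-49822729, plus strand: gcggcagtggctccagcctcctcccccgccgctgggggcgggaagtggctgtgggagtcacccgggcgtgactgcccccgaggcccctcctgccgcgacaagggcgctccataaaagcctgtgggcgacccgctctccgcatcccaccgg
The whole palindrome began 48 bases upstream of the Sst start and 112 bases upstream of the Cartpt start. Vip held the short form TGACG 79 bases upstream, and Npy held neither form in its 300 bases. In the Cck and Tac1 promoters, which are not printed, CGTCA began 47 and 43 bases upstream, and Tac1 held a further copy at 197 bases. Among all 32851 promoters of 300 bases in the table, 1.79% held TGACGTCA and 20.8% held the short form on either strand. A match of letters describes the window and shows no binding. Promoters of Penk1, Vgf, Crh and Pnoc are named only.

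The members ranged from abundant to scarce RNAs. RPKM is per transcript length, so levels of different genes can be set side by side, but only roughly. The length used for each gene was not given in the sources used here. By the mean over all 9 mice the order was Cck (270.0 RPKM), Penk1 (198), Npy (164), Vgf (119), Sst (33.6), Cartpt (16.3), Crh (12.8), Vip (9.86), Pnoc (5.24) and Tac1 (3.42). Cck ranked 141 among the 12780 genes and Tac1 ranked 9969. Together, Cck, Penk1, Npy and Vgf made up 88.4% to 92.1% of the summed RPKM of the 10 genes, with a median of 90.4%. The 10 genes made up 0.2% to 0.317% of all RPKM of a library.

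Neighbours in that order were not always separate. Vgf exceeded Sst, Sst exceeded Cartpt and Vip exceeded Pnoc in 9 of 9 mice. Cck exceeded Penk1 in 8 mice, the exception being 120 min mouse 1, and Penk1 exceeded Npy in 8, the exception being clean air mouse 1. Npy exceeded Vgf in all but clean air mouse 3, and Pnoc exceeded Tac1 in all but 30 min mouse 1. Cartpt was above Crh in 7 mice and Crh above Vip in 6, so Crh was not separated from either neighbour beyond the spread between mice, while Cartpt was above Vip in 9 of 9.

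**Figure D1:**
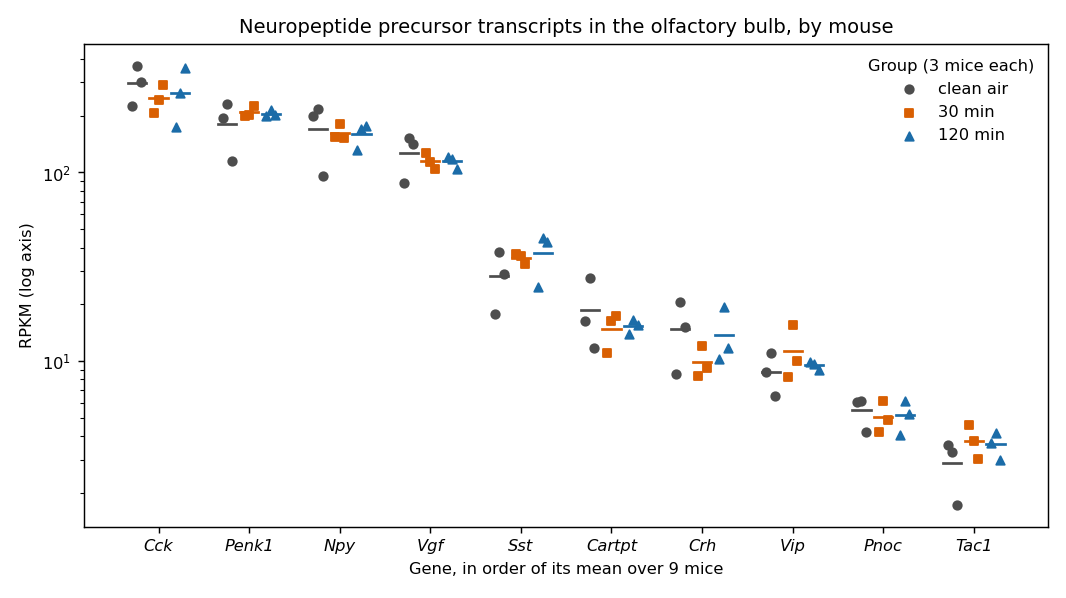
RPKM of each of the 10 peptide genes in each of the 9 mice on a log10 axis, with points for mice, coloured by group, and a horizontal line for the group mean. The genes run from 270.0 RPKM for Cck to 3.42 RPKM for Tac1 by their 9-mouse means, and the 3 groups overlap for each gene.

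Cck encodes the precursor of cholecystokinin, a peptide of tufted cells. Its values were 225, 367 and 301 RPKM in clean air mice 1 to 3, 208, 241 and 292 RPKM in the 30 min mice, and 175, 263 and 359 RPKM in the 120 min mice. Mouse 1 was the lowest in every group, and the 3 groups overlapped. The mean was 298 ± 71.3 RPKM in clean air (SD, n = 3), 247 ± 42.1 at 30 min and 265 ± 91.9 at 120 min. The log2 difference from clean air was -0.26 ± 0.27 at 30 min (SE, limma adjusted p = 0.881) and -0.20 ± 0.27 at 120 min (limma adjusted p = 0.870). Both estimates were smaller than their standard error. Without clean air mouse 1 the 30 min estimate was -0.44, and without clean air mouse 2 the estimates were -0.09 and -0.03, while without 120 min mouse 1 the 120 min estimate was 0.07. Its receptor gene Cckbr had 35.4 ± 7.61 RPKM over the 9 mice, while the other receptor gene, Cckar, had values of 0 to 0.07 RPKM. In whole-tissue RNA, as for every gene here, fewer cells of a type and less RNA per cell cannot be told apart.

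The opioid family was represented by Penk1, whose precursor yields the enkephalins, and Pnoc, whose precursor yields nociceptin. Penk1 had 194, 232 and 115 RPKM in the clean air mice, 199, 203 and 225 RPKM at 30 min, and 199, 216 and 201.3 RPKM at 120 min. The low value of clean air mouse 3 lay outside the range of the other 8 mice, which ran from 194 to 232 RPKM. The estimate was 0.27 ± 0.23 at 30 min (limma adjusted p = 0.851) and 0.25 ± 0.23 at 120 min (limma adjusted p = 0.790). Without clean air mouse 3 these became -0.03 and -0.05, and without clean air mouse 2 they were 0.48 and 0.46. In the annotation used for names, Penk1 overlaps a gene on the opposite strand, and because the strandedness of counting was not given in the sources used here, reads from the overlap cannot be told apart. Pnoc had 6.07, 6.18 and 4.22 RPKM in the clean air mice, 4.19, 6.16 and 4.90 at 30 min, and 4.04, 6.17 and 5.25 at 120 min. Mouse 2 was the highest of each group, at 6.16 to 6.18 RPKM, and its estimates were -0.10 at 30 min and -0.08 at 120 min (limma adjusted p = 0.939 and 0.938). Leaving out clean air mouse 3 gave -0.26 and -0.25. Of their receptor genes, Oprl1, the nociceptin receptor, had 10.8 ± 1.68 RPKM, Oprd1, the delta receptor that binds enkephalins, 8.46 ± 1.60 RPKM, and Oprk1, the dynorphin receptor, 0.16 to 1.26 RPKM. Oprm1, also an opioid receptor gene, was not found by symbol, so its level is not known here.

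Npy encodes neuropeptide Y, which in the bulb is made by interneurons and, in rodents, by the ensheathing glia of the nerve layer. It had 199, 217 and 95.6 RPKM in the clean air mice, 153, 182 and 153 RPKM at 30 min, and 131, 170.3 and 176 RPKM at 120 min. Clean air held both the highest 2 values and the lowest value of all 9 mice. The estimate was 0.02 ± 0.28 at 30 min (limma adjusted p = 0.991) and -0.02 ± 0.28 at 120 min (limma adjusted p = 0.989). Without clean air mouse 3 the estimates were -0.36 and -0.39, and without clean air mouse 2 they were 0.23 and 0.20. Clean air mouse 3 was also lowest in summed ensheathing markers (546 RPKM), and clean air mouse 2, highest in Npy, had 1532 RPKM. Their part in the Npy values was not tested. The receptor gene Npy1r had 3.10 ± 0.571 RPKM and Npy5r 0.25 to 1.13 RPKM, while Npy2r was not found by symbol.

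Sst, the somatostatin gene, had 17.7, 37.7 and 29.1 RPKM in the clean air mice, 36.9, 35.9 and 32.8 RPKM at 30 min, and 24.6, 44.9 and 42.9 RPKM at 120 min. It had the highest positive estimate at both times, 0.38 ± 0.29 at 30 min (limma adjusted p = 0.841) and 0.42 ± 0.29 at 120 min (limma adjusted p = 0.691). Clean air mouse 1 was the lowest of all 9 mice, and without it the estimates were 0.09 and 0.13. Without clean air mouse 2 the 30 min estimate was 0.62, and without 120 min mouse 1 the 120 min estimate was 0.70. Clean air mouse 2 exceeded all 30 min mice, and 120 min mouse 1 was below clean air mice 2 and 3, so the groups overlapped. Among its receptor genes Sstr3 had 12.2 ± 2.58 RPKM, and Sstr1 was listed at 0 in all 9 libraries. The receptor genes Sstr2 and Sstr4 were not found by symbol, so their levels are not known here.

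Crh encodes corticotropin-releasing hormone, which local interneurons of the bulb release onto granule cells. It had 8.53, 20.6 and 15.2 RPKM in the clean air mice, 8.32, 12.1 and 9.25 RPKM at 30 min, and 10.3, 19.3 and 11.7 RPKM at 120 min. Mouse 1 was lowest and mouse 2 highest in every group. The estimate at 30 min, -0.49 ± 0.32, was the farthest from 0 of the 10 genes (limma adjusted p = 0.841), and at 120 min it was -0.07 ± 0.32 (limma adjusted p = 0.969). Without clean air mouse 1 the 30 min estimate was -0.83, and without clean air mouse 2 it was -0.22. The 120 min estimate was -0.40 and 0.21 without those same mice. Its receptor gene Crhr1 had 27.7 ± 8.30 RPKM, Crhbp, which encodes a secreted binding protein for the peptide, 7.46 ± 1.79 RPKM, and Crhr2 1.19 ± 0.402 RPKM.

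Vip encodes vasoactive intestinal peptide, a marker of superficial and external plexiform interneurons. It had 8.72, 11.1 and 6.57 RPKM in the clean air mice, 8.27, 15.6 and 10.02 RPKM at 30 min, and 9.84, 9.64 and 9.0 RPKM at 120 min. Mouse 2 of the 30 min group stood above the other 8, and the groups overlapped. The estimate was 0.33 ± 0.25 at 30 min (limma adjusted p = 0.844) and 0.13 ± 0.25 at 120 min (limma adjusted p = 0.907). Without 30 min mouse 2 the first became 0.08, and without clean air mouse 3 they were 0.14 and -0.05. Without 30 min mouse 1 the 30 min estimate was 0.52, and without clean air mouse 2 the 120 min estimate was 0.31. Adcyap1r1, the receptor gene for the related peptide PACAP, had 72.8 ± 4.81 RPKM, the highest level among the receptor genes listed. Vipr2 had 22.1 ± 6.07 RPKM and Vipr1 0.33 to 1.33 RPKM.

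Tac1, which encodes the precursor of substance P, was the lowest of the 10, at 3.59, 3.29 and 1.73 RPKM in the clean air mice, 4.56, 3.75 and 3.03 RPKM at 30 min, and 3.70, 4.17 and 2.99 RPKM at 120 min. Its reads were few, with an estimated 72.5 counts in the library with the fewest, which alone gives a counting error of 11.7%. The estimate was 0.38 ± 0.27 at 30 min (limma adjusted p = 0.841) and 0.33 ± 0.27 at 120 min (limma adjusted p = 0.753). Clean air mouse 3 was the lowest of all 9, and without it the estimates were 0.10 and 0.06. Without clean air mouse 1 they were 0.54 and 0.49. The substance P receptor gene Tacr1 had 3.80 ± 1.16 RPKM.

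Cartpt, the precursor gene of cocaine- and amphetamine-regulated transcript peptide, had 16.3, 27.7 and 11.8 RPKM in the clean air mice, 11.0, 16.2 and 17.3 RPKM at 30 min, and 13.9, 16.6 and 15.6 RPKM at 120 min. Clean air mouse 2 stood above the other 8 mice. The estimate was -0.25 ± 0.28 at 30 min (limma adjusted p = 0.889) and -0.18 ± 0.28 at 120 min (limma adjusted p = 0.882). Without clean air mouse 2 both turned positive, to 0.07 and 0.14, and without clean air mouse 3 they were -0.53 and -0.46.

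Vgf encodes a granin-like precursor of several secreted peptides and is a well-known target of nerve growth factor and activity. It had 88.1, 153 and 141 RPKM in the clean air mice, 127, 113 and 104 RPKM at 30 min, and 121, 118 and 104 RPKM at 120 min. All 6 exposed mice lay above clean air mouse 1 and below clean air mice 2 and 3. The estimate was -0.11 ± 0.21 at 30 min (limma adjusted p = 0.926) and -0.12 ± 0.21 at 120 min (limma adjusted p = 0.904). Without clean air mouse 2 the estimates were 0.04 and 0.03, and without clean air mouse 1 they were -0.35 and -0.36.

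**Figure D2:**
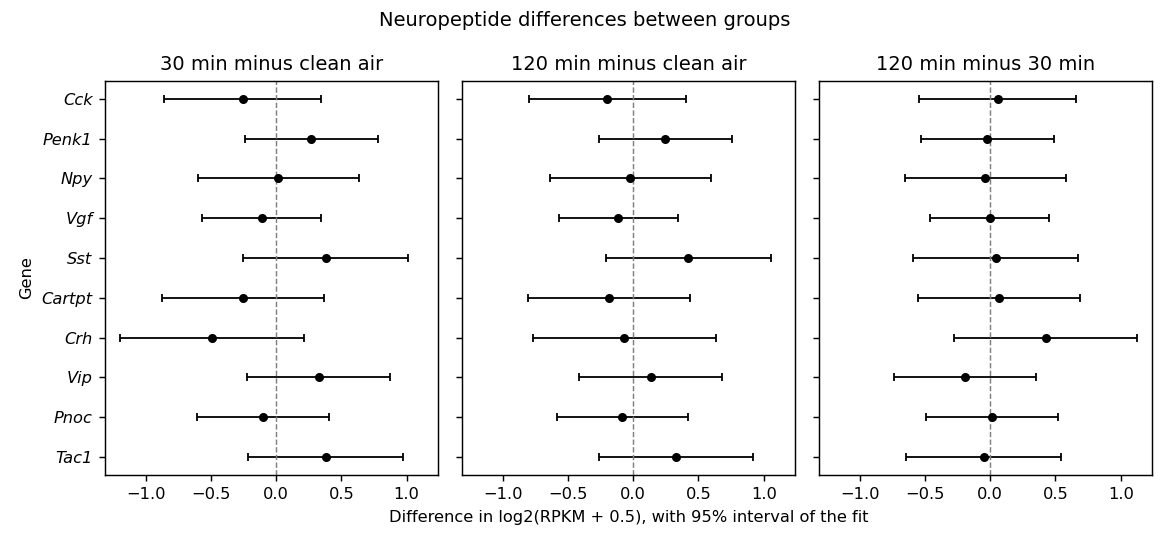
Estimated log2 difference of each peptide gene in the 3 comparisons between groups, with 95% intervals from limma on log2(RPKM + 0.5). Each interval crosses 0, and the widest reach belongs to Crh at 30 min, down to -1.19.

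Across the 10 genes, no member passed the test in any comparison between groups. At 30 min against clean air, 0 of 10 members were called at a limma adjusted p under 0.05, and 0 had an unadjusted p under 0.05. Over all tested genes 0.141% were called (18 genes, 17 higher and 1 lower) and 5.92% had an unadjusted p under 0.05. At 120 min against clean air the members again gave 0 and 0, against 0.0861% called over all tested genes (9 higher and 2 lower) and 9.57% by the unadjusted p. At 120 min against 30 min they gave 0 and 0, against 0.0782% (10 genes, all lower) and 3.36%. A count of 0 among 10 is close to that background and sets the members apart from no other genes. The 120 min count over all genes rested on single libraries: it was 6, 0, 3, 3 and 0 without clean air mouse 1, clean air mouse 2, or 120 min mouse 1, 2 or 3.

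The 3 mice of an exposed group lay entirely above or below the 3 clean air mice for 0 of 10 members at 30 min, while this held for 11.4% of all tested genes, and for 0 of 10 at 120 min, against 13.1%. It held for 0 of 10 between 120 and 30 min, against 10.6%. The mean of both exposed groups against clean air gave estimates from -0.28 for Crh to 0.40 for Sst and 0 calls, against 0.125% over all tested genes (16 genes, or 9 without clean air mouse 2). The moderated F test over the 3 groups gave 0 calls, against 0.164%, with limma adjusted p from 0.890 to 0.998. Between 120 and 30 min the estimates ran from -0.19 for Vip to 0.42 for Crh, each with a limma adjusted p of 0.999. The median estimate of the 10 genes was -0.04 at 30 min and -0.04 at 120 min, beside 0.08 and 0.03 over all tested genes. Estimates were above 0 for 5 of 10 members at 30 min and 4 of 10 at 120 min, beside 61.8% and 53.9% of all tested genes.

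A missed threshold does not show that levels stayed equal, and the intervals give the size of difference that could have gone undetected. They are of the fit that does not pair mice across groups by number, and they depend on that choice. At 30 min the 95% intervals reached from -1.19 for Crh to 1.01 for Sst on the log2 scale, which is from 0.437-fold to 2.02-fold of clean air. At 120 min they reached from -0.81 to 1.05, or 0.572-fold to 2.08-fold. Intervals lay within 1 log2 unit on either side of 0 for 8 members at 30 min, for 9 at 120 min and for 9 between the exposed groups. Among the cell type markers, Nr4a2, a dopaminergic marker and also an activity-regulated transcription factor gene, was called in the same fit, with 1.59 ± 0.18 at 30 min (limma adjusted p = 0.00355) and 1.49 ± 0.18 at 120 min (limma adjusted p = 0.0143). Changes of protein, release or translation are not measured by these data.

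The spread between mice of a group was larger for most of these genes than for a typical gene. The residual SD on the log2 scale was 0.47 for Crh, 0.42 for Sst, 0.41 for Cartpt, 0.40 for Npy and 0.39 for Cck. It was 0.34 for Tac1, 0.33 for Vip, 0.31 for Penk1, 0.27 for Pnoc and 0.27 for Vgf. Their median was 0.36, beside 0.28 over all tested genes, and 0.29 without clean air mouse 3. For Crh, 85.6% of tested genes had a smaller SD, and for Vgf 46.6%. Among the 200 tested genes nearest to each member in level, the share with a smaller SD ran from 43.5% for Pnoc to 90.5% for Crh.

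In the clean air group the same mice were high or low for many of the genes. Clean air mouse 2 was the highest of its group in 9 of the 10 genes, all but Tac1, with a median deviation from the group mean of 0.39 log2 units. Clean air mouse 3 was the lowest in 6 genes (Npy, Penk1, Tac1, Vip, Pnoc and Cartpt), with a median deviation of -0.35, and clean air mouse 1 was the lowest in the other 4 (Cck, Sst, Crh and Vgf). The deviation of clean air mouse 3 was -0.74 for Npy. In the exposed groups, mouse 1 was the lowest in 6 genes at 30 min and in 7 genes at 120 min. The ensheathing marker sums were 1120.4, 1532 and 546 RPKM in the clean air mice, 974.9, 1653 and 1391 at 30 min, and 709, 1623 and 916 at 120 min. Granule cell and GABAergic markers summed to 1373 to 1595 RPKM in the clean air mice, 1467 to 1785 at 30 min and 1424 to 1531 at 120 min. Recovered depth was 10.5, 22.1 and 29.8 M in clean air mice 1 to 3. It was 8.80, 28.8 and 17.4 M at 30 min, and 9.83, 24.1 and 7.14 M at 120 min. The part of these markers and of depth in the spread of the peptide genes was not tested.

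**Figure D3:**
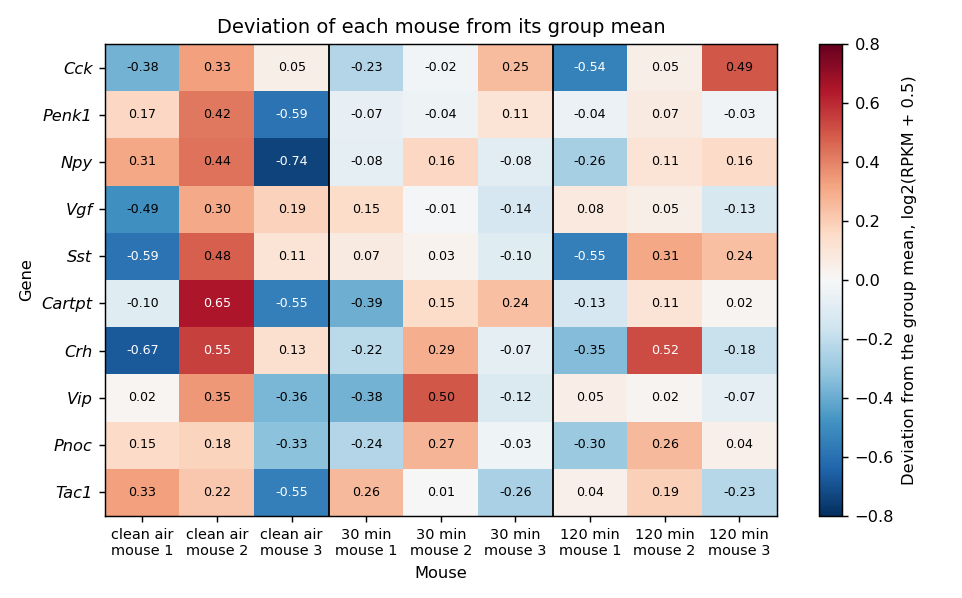
Deviation of each mouse from its group mean, in log2 units of RPKM + 0.5, for each peptide gene (rows) and mouse (columns), on a colour scale centred on 0. Clean air mouse 2 is above its group mean in all 10 genes, and clean air mouse 3 reaches -0.74 for Npy.

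Pairs of peptide genes were compared across the 9 mice on log2 values, with an exact permutation test for each of the 45 pairs. No pair passed at an adjusted p under 0.05, and 35 of the 45 coefficients were positive, with a median of 0.27. The pair with the lowest exact permutation p was Npy and Pnoc, with Pearson's r of 0.806 (p = 0.00234, adjusted p = 0.105) and Spearman's rho of 0.8 (exact permutation p = 0.0138, adjusted p = 0.287). Without the 2 mice farthest from the median of Npy, r was 0.767. Penk1 and Npy had an r of 0.81 (exact permutation p = 0.0262, adjusted p = 0.393) and a rho of 0.433. Without the 2 mice farthest from the median of Penk1 their r was -0.194, so that relation rests on those mice, and without clean air mouse 3 it was 0.297.

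For each member, the tested genes whose log2 values over the 9 libraries correlated best with it, at r above 0.9, were listed up to 3. Each was picked as one of the highest among the tested genes that have a symbol and are not members, and carries no test. Pnoc ran closest to Frzb (r = 0.989), a secreted Wnt antagonist and ensheathing cell marker, then to B2m (0.947), an MHC class I subunit gene, and Gypc (0.925). Sst ran closest to Slc39a13 (r = 0.983), a zinc transporter gene, and Tac1 to Gria1 (r = 0.979), an AMPA receptor subunit gene, then Scd1 (0.96) and Rnf4 (0.957). Npy was nearest to Dynlrb2 (r = 0.973), a dynein light chain gene, and Rnase4 (0.958). Vip was nearest to Ndufa10 (r = 0.969), a gene of respiratory complex I, Cd38 (0.967) and Spg20 (0.967). Penk1 was near Hmox2 (r = 0.965), a haem oxygenase gene, and Lrch3 (0.961). Cck was nearest to C1qc (r = 0.938), a complement gene of microglia, and Dyrk1b (0.936), a kinase gene. Crh was nearest to Dlx1 (r = 0.926), a transcription factor gene of GABAergic interneurons. Cartpt was nearest to Irak1 (r = 0.937), a kinase gene of innate immune signalling, and Selm (0.907), and Vgf to Adam1a (0.904). Uncharacterised transcripts are left out of these lists.

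The machinery around these peptides was described from 4 lists. The first held other peptide precursor genes, of which 40 of 43 were found and 20 passed the level filter. The second held granins and genes of prohormone processing, with 20 of 21 found and 19 tested. The third held receptors and a binding protein of the member peptides, with 21 of 26 found and 11 tested. The fourth held peptidases that break peptides down and the peptidase-like gene Dpp10, with 12 of 14 found and 9 tested. In each of the 4 lists 0 genes were called in any comparison, by limma at an adjusted p under 0.05, beside 0.141% of all tested genes at 30 min and 0.0861% at 120 min. By the unadjusted p at 30 min, 0 precursors were higher and 1 lower, 4 processing genes were higher and 0 lower, 0 receptors were on either side, and 2 peptidases were higher and 0 lower, beside 3.62% of all tested genes higher and 2.30% lower. At 120 min the counts were 1 higher and 2 lower for precursors, 4 and 0 for processing genes, 0 and 0 for receptors, and 3 and 0 for peptidases, beside 5.72% and 3.85% of all tested genes. The list medians at 30 min were 0.15, 0.21, 0.02 and 0.16 in that order, beside 0.08 over all tested genes, and at 120 min 0.01, 0.09, 0.24 and 0.12, beside 0.03.

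**Figure D4:**
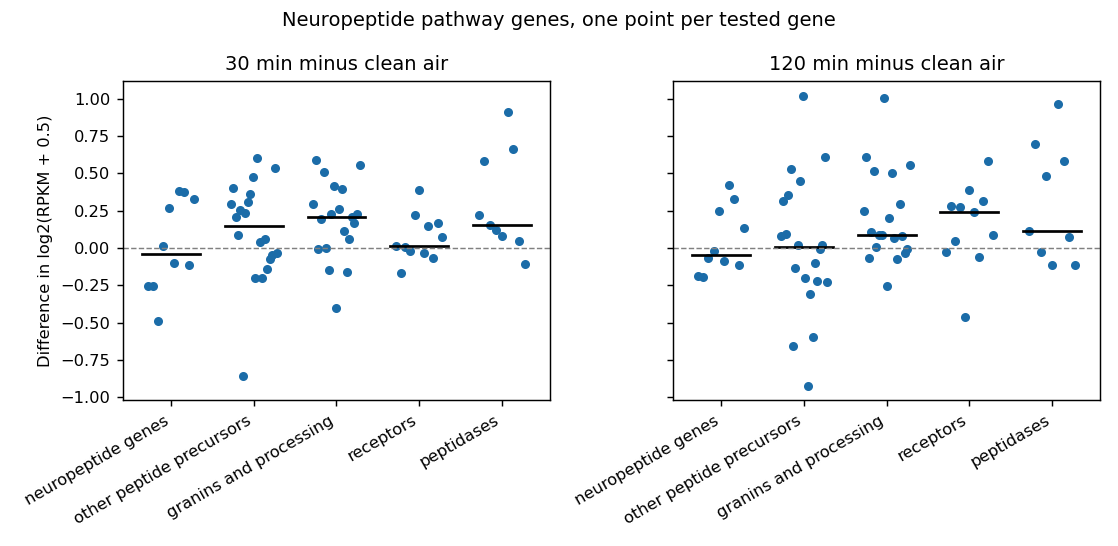
Estimated log2 difference from clean air at 30 min and at 120 min for each tested gene of the members and of the 4 lists, with a line at each list's median. The medians of the 4 lists lie between 0.01 and 0.24, and none of the plotted genes was called.

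Processing genes were abundant. Pcsk1n, which encodes an inhibitor of the convertase PC1/3, had a mean of 875 RPKM over the 9 mice, Cpe, the carboxypeptidase that trims the cut peptides, 748 RPKM, Ptprn, a dense-core vesicle membrane protein gene, 244 RPKM, and Chga, the chromogranin A gene, 134 RPKM. Their estimates at 30 min were -0.40, 0.00, -0.16 and -0.01 log2 units. The convertase gene Pcsk1, named after its values were seen, had 7.47, 7.11 and 5.51 RPKM in the clean air mice, 8.22, 10.2 and 8.78 at 30 min, and 16.6, 12.5 and 12.8 at 120 min. The 3 groups did not overlap, and the estimate at 120 min was 1.01 ± 0.19 with a limma adjusted p of 0.182, which missed the threshold. Among the 19 tested processing genes, groups did not overlap for 5 at 30 min, 4 at 120 min and 3 between the exposed groups. Over all tested genes this held for 11.4%, 13.1% and 10.6%.

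Among genes of the peptidase list, the highest were Ece1, an endothelin-converting enzyme gene, with 30.7 RPKM, Thop1, a thimet oligopeptidase gene, with 24.8 RPKM, Dpp10, a dipeptidyl peptidase-like gene counted here by family only, with 17.6 RPKM, and Prep, a prolyl endopeptidase gene, with 11.1 RPKM. Their estimates at 120 min were 0.48, -0.11, -0.03 and 0.08.

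Other precursor genes reached levels like those of the members. Nmb, the neuromedin B gene, had 116 RPKM, Trh, the gene of thyrotropin-releasing hormone, 82.2 RPKM, Agt, the angiotensinogen gene, 39.2 RPKM, and Nppa, the atrial natriuretic peptide gene, 15.4 RPKM. Nmb overlaps a gene on the same strand in the annotation used for names. Cort, Npff and Igf1 were named after their values were seen. Of the 20 tested precursors, groups did not overlap for 2 at 30 min, 4 at 120 min and 2 between the exposed groups. Over all tested genes this held for 11.4%, 13.1% and 10.6%. Cort encodes cortistatin, a peptide related to somatostatin. It had 13.3, 22.8 and 17.1 RPKM in the clean air mice, 7.91, 11.7 and 8.81 RPKM at 30 min, and 8.26, 15.2 and 10.1 RPKM at 120 min. All 30 min mice were below all clean air mice, and the estimate was -0.86 ± 0.26 (limma adjusted p = 0.749). Sst, whose product shares receptors with cortistatin, had 0.38 in the same comparison.

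Npff, which encodes neuropeptide FF, had 1.40, 1.86 and 2.66 RPKM in the clean air mice, 1.67, 3.37 and 5.40 RPKM at 30 min, and 1.19, 0.85 and 0.41 RPKM at 120 min. All 120 min mice were below all 30 min mice, with an estimate of -1.53 ± 0.39 (limma adjusted p = 0.961). Npff overlaps another gene on the same strand in the annotation, so its reads are uncertain. Igf1, the gene of insulin-like growth factor 1, had 12.7, 8.15 and 4.57 RPKM in the clean air mice, 10.5, 15.2 and 8.47 RPKM at 30 min, and 17.2, 14.2 and 18.1 RPKM at 120 min. All 120 min mice were above all clean air mice, with an estimate of 1.02 ± 0.32 (limma adjusted p = 0.361). Igf1 and Pcsk1n overlap genes on the opposite strand, so reads of the overlaps cannot be told apart.

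**Figure D5:**
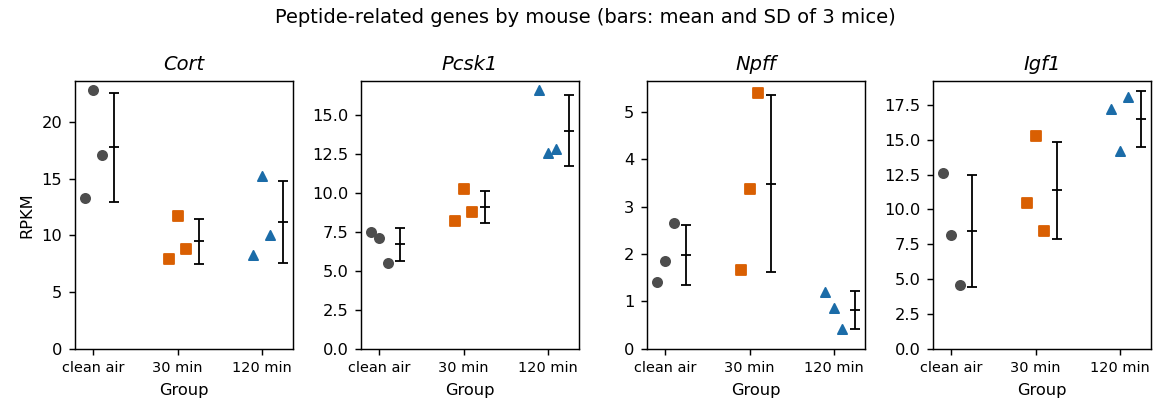
RPKM in each mouse for Cort, Pcsk1, Npff and Igf1, with points for mice and, beside them, the group mean with bars of 1 SD (3 mice), on axes that start at 0. The 3 groups of Pcsk1 do not overlap, and Cort lies between 7.91 and 11.7 RPKM at 30 min against 13.3 to 22.8 in clean air.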

How the data were processed

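The submitters' processing notes name Bowtie and the mouse build mm9. The version of Bowtie, the annotation and the rule and strand of counting were not given in the sources used here. RPKM values for 27497 identifiers were deposited by the authors to 2 decimals, in 9 columns that the sample descriptions tie to mice. Older symbols were kept (Penk1 is Penk).

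The test used limma 3.58.1 (R 4.3.3; lmFit, eBayes with trend) on log2(RPKM + 0.5), in one fit to all 9 libraries, for the 12780 genes averaging 1 RPKM or more. The code was tested on simulated data. Tests were two-sided, with Benjamini-Hochberg adjustment over all tested genes and calls under 0.05. Fold changes on this scale understate the change of low genes. Both exposed groups were compared with the same clean air mice, so those comparisons are not independent.

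Depth was recovered from the spacing of values of RNAs under 200 nt, with annotated lengths shortened by 34 nt, and 87.1% to 93.9% of multiples were whole within 0.05 per library. Floors were taken at 3 counts and cover counting error only. Estimated counts per gene used exon lengths of GENCODE M21 and are rough. Gene overlaps and some names came from GENCODE M21, and promoters from RefSeq.

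The 10 members, the gene lists and the tests were chosen with earlier results of these data known. Named genes were the 10 members, any called gene and the 4 highest by level of each of the 4 peptide lists, and up to 3 genes most like each member. Receptor genes beside their ligand and cell type markers are named for their role, after their values were seen. The markers named are not always the highest of their list. Alternatives covered the pseudocount, the level filter, the scaling, the fit and the mice left out.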

Additional observations from a re-analysis of the deposited data

How the results depend on the processing

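No peptide gene was called under any of the 786 combinations of gene, comparison and setting, and the lowest limma adjusted p among them was 0.334. With all mice kept, 379 of 386 alternative estimates had the direction of the reported value. The other 7 were close to 0. Settings that change only the level filter or the fit leave an estimate unchanged, so they could not turn its direction. Only the pseudocount and the scaling could, so the share of 379 in 386 says little about stability. With each library centred on its median, Npy at 30 min was -0.064, and Penk1 and Vgf at 120 against 30 min were 0.014 and 0.032. With quantile normalization, Penk1, Tac1 and Vgf at 120 against 30 min were 0.0071, 0.014 and 0.00027, and Npy in both exposed groups was 0.0046.

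Leaving out a mouse turned 45 of 360 estimates. An estimate between a pair of groups cannot change when the mouse left out is from the group not compared. Such outcomes are among the 360 and were fixed in advance. Over the mice left out, these members crossed 0 at 30 min: Npy (-0.36 to 0.23), Penk1 (-0.026 to 0.48), Pnoc (-0.26 to 0.019), Cartpt (-0.53 to 0.070) and Vgf (-0.35 to 0.040). At 120 min they were Cck (-0.44 to 0.072), Npy (-0.39 to 0.20), Penk1 (-0.049 to 0.46), Vip (-0.049 to 0.31), Crh (-0.40 to 0.21), Pnoc (-0.25 to 0.066), Cartpt (-0.46 to 0.14) and Vgf (-0.36 to 0.035). At 120 against 30 min they were Cck (-0.19 to 0.33), Sst (-0.11 to 0.32), Npy (-0.12 to 0.094), Penk1 (-0.059 to 0.030), Tac1 (-0.18 to 0.079), Vip (-0.38 to 0.056), Pnoc (-0.11 to 0.16), Cartpt (-0.13 to 0.19) and Vgf (-0.073 to 0.069). For both exposed groups they were Npy (-0.38 to 0.21), Penk1 (-0.038 to 0.47), Cartpt (-0.49 to 0.10) and Vgf (-0.36 to 0.037).

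The count of genes called at 120 min, 11, was 7 at a mean of at least 5 RPKM and 2 with only the groups compared in the fit. Leaving out each mouse in turn gave 13 to 19 genes at 30 min, 0 to 11 at 120 min (0 without clean air mouse 2 or 120 min mouse 3), 7 to 10 between the exposed groups, 9 to 18 for the mean of both exposed groups and 14 to 19 by the F test. The members' median SD ran from 0.29 to 0.40, and 3 to 4 neighbour pairs kept their order in every mouse left.

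The sample titles number the mice of each group 1 to 3, but the numbers in the sample descriptions match these only for mouse 1 of each group and clean air mouse 2, and the labels tie no number to a shared litter or day. Deviations of same-numbered mice correlated at 0.081 to 0.444, over 0.1 in 7 of 9 pairs (3 of 3 between clean air and 30 min), against -0.38 to 0.0865 for other pairs. Since 2 pairs fell short of the cutoff of 0.1, the pairing was not used in the reported fit. The reported SDs, intervals and p-values depend on that choice. With the replicate block 22 genes were called at 30 min, 11 at 120 min, 10 between the exposed groups and 20 for the mean of both. The SD of Crh fell from 0.47 to 0.22 and that of Cck from 0.39 to 0.23 with the block. It also fell for Sst, Tac1, Vip, Pnoc and Cartpt. For Npy it rose from 0.405 to 0.408, for Penk1 from 0.311 to 0.326 and for Vgf from 0.267 to 0.303. The median SD over all tested genes fell from 0.279 to 0.221. Crh then had an unadjusted p of 0.0202 at 30 min and 0.0378 at 120 against 30 min by limma (adjusted p = 0.422 and 0.723), so the count of members with an unadjusted p under 0.05, reported as 0, was 1 in each of these comparisons with the block. Over all tested genes, 10.9% and 6.68% had an unadjusted p under 0.05 there, so 1 of 10 is close to that background. Cort at 30 min had an adjusted p of 0.0685 by limma with the block.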
